A study of Mus musculus with 8 samples.

Results

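The insulin-like growth factor axis is described here by 8 genes of ischemic mouse leg muscle: the ligands Igf1 and Igf2, the receptors Igf1r and Igf2r, the binding proteins Igfbp3, Igfbp5 and Igfbp7, and the non-coding RNA H19. They were chosen by gene symbol from the 24848 genes in the tables, and all 8 passed the filter on low counts and were among the 13569 genes tested. RNA sequencing was done on ischemic tibialis anterior muscle of 4 libraries from mice fed praliciguat and 4 from mice fed a control diet (placebo). All mice were labelled male Leprdb/db, that is, without a working leptin receptor, and every mouse had undergone surgery for hind limb ischemia and was killed 28 days later. The praliciguat chow held 75 ppm of the drug and was eaten freely for 31 days from day -3, with surgery on day 0; it was meant to match the peak plasma level that 10 mg/kg/day by mouth would give. The placebo chow held none. Praliciguat stimulates soluble guanylate cyclase, the enzyme that makes cGMP when nitric oxide binds it. Neither lean mice nor muscle without ischemia were among these libraries, and ages were not given in the sources used here. No label ties a library to its own mouse, so the p-values reflect differences among these libraries, which may be partly technical.

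IGF1 and IGF2 are small secreted proteins related to insulin. Both signal through the tyrosine kinase receptor IGF1R, whereas IGF2R takes up and degrades IGF2. Binding proteins hold the ligands outside the cell and can block or prolong their action. In skeletal muscle the ligands are known to be made by muscle cells and by macrophages and other interstitial cells after injury, and to promote growth of myoblasts and fibres. H19 is a maternally expressed imprinted RNA beside the paternally expressed Igf2, abundant in fetal and in adult skeletal muscle.

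Total expected counts, RSEM's estimates of reads per gene, ranged from 27271020 to 31896205 in praliciguat and from 21099764 to 29635817 in placebo libraries. Skeletal muscle fibre markers were abundant in every library, with a summed level of 129554 to 152605 TPM in praliciguat and 139005 to 147568 TPM in placebo (8 genes, none at 0). TPM is a level scaled for gene length, with the same total in every library. Praliciguat replicate 3 stood apart, with a root mean square distance of 0.553 on the log2 scale from the 8-library mean over all tested genes, against 0.411 to 0.425 in the other praliciguat and 0.317 to 0.361 in placebo libraries. Its 9 macrophage markers summed to 1460 TPM, against 122 to 299.9 TPM in the other praliciguat libraries and 171 to 483 TPM in placebo. In bulk muscle fewer cells of a type and less RNA per cell cannot be told apart. Markers of slow fibres summed to 447 to 707 TPM in praliciguat and 1330 to 3241 TPM in placebo, without overlap; their part in the results below was not tested. Title numbers fall into a low block, with replicates 1 and 2 of both groups, and a high block, with replicates 3 and 4, called the lower and upper run here; the labels give no meaning to them.

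None of the 8 genes differed between the diets beyond the spread between libraries. By edgeR's quasi-likelihood test 0 of 8 passed an adjusted p under 0.05, where 0% of all 13569 genes did (0 higher and 0 lower). At an unadjusted p under 0.05 there were 0 of 8, where 5.73% of all genes passed (1.95% higher and 3.78% lower). In 0 of the 8 did the groups fail to overlap, where 3.86% of all genes separated (1.32% higher and 2.54% lower). DESeq2 and limma-voom each called 0 of the 8 as well, at an adjusted and at an unadjusted p under 0.05, with 0.953% and 0.0147% of all genes called at an adjusted p. The log2 fold changes, praliciguat over placebo, lay above 0 for Igf1 and Igf2 and below 0 for the other 6, with a median of -0.093 beside 0.020 over all genes tested. Of all genes tested 44.8% lay below 0.

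**Figure D1:**
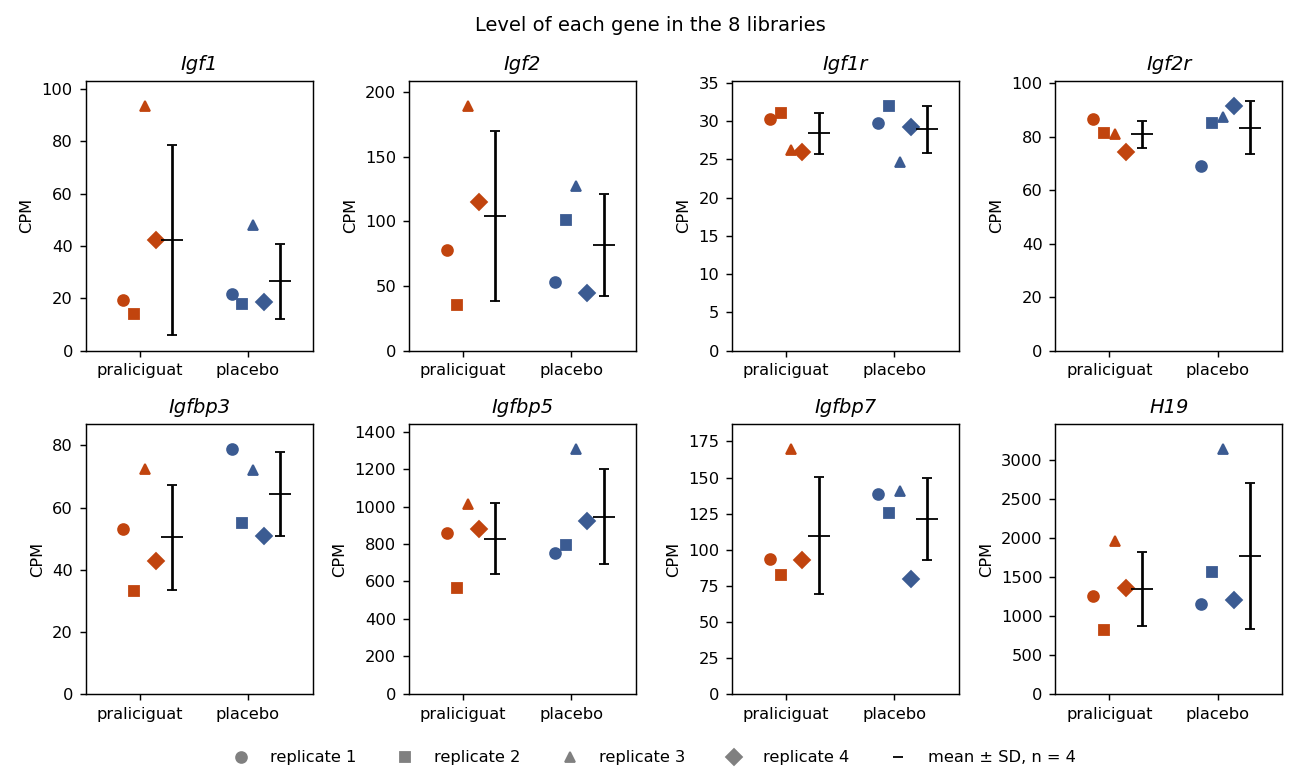
Level of each of the 8 genes in CPM, the count scaled to library size (linear axis from 0), 1 symbol per library and replicate, praliciguat left and placebo right of each panel, with the mean and SD (n = 4) beside the points. The groups overlap in all 8 panels; replicate 3 of both groups lies high for Igf1, Igf2 and H19, whereas Igf1r and Igf2r vary little.

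**Figure D2:**
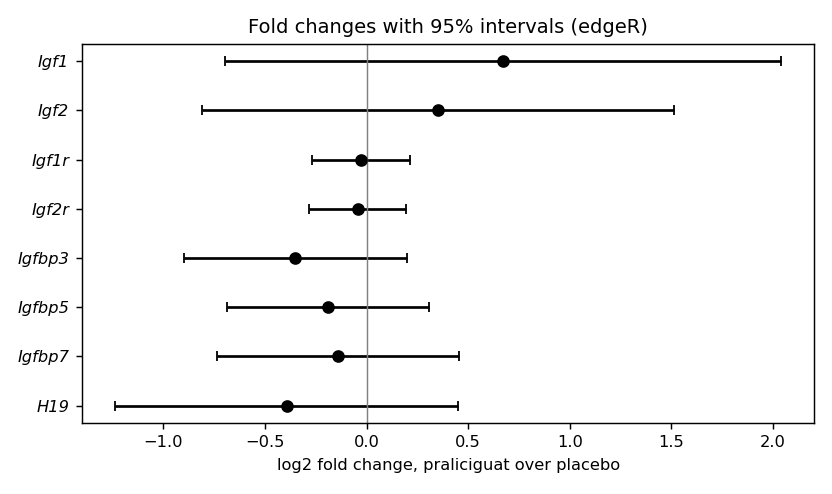
Log2 fold change of praliciguat over placebo for each gene (point) with its 95% interval from the edgeR fit (bar). Every interval holds 0; those of Igf1r and Igf2r are the narrowest of the 8 and that of Igf1 is the widest.

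The genes spanned a wide range of levels. H19 averaged 1327 TPM over the 8 libraries and ranked 83 among all genes by mean TPM. Igfbp5 (279.7 TPM) and Igfbp7 (219 TPM) followed, then Igf2 (51.2 TPM), Igfbp3 (45.4 TPM), Igf2r (16.7 TPM), Igf1 (9.02 TPM) and Igf1r (4.30 TPM). H19 exceeded Igfbp5, Igfbp7 exceeded Igf2, and Igfbp3 exceeded Igf2r in 8 of 8 libraries. Other neighbours did not keep their order in every library: Igfbp5 exceeded Igfbp7 in 6 libraries, Igf2 exceeded Igfbp3 in 4, Igf2r exceeded Igf1 in 7 and Igf1 exceeded Igf1r in 6.

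Igf1, the growth hormone-dependent ligand that muscle also makes locally, lies on chromosome 10 from 87858265 to 87937047 (plus strand). Its level was 19.2, 13.8, 93.6 and 42.3 CPM in praliciguat replicates 1 to 4, against 21.5, 18.0, 48.0 and 18.6 CPM in placebo replicates 1 to 4. CPM is the count scaled to a library size that TMM, a correction for composition, had adjusted. The highest praliciguat library was 6.76 times the lowest library, also a praliciguat one, and the groups overlapped. The log2 fold change was 0.67 ± 0.60 SE (edgeR adjusted p = 0.984), with a 95% interval of -0.69 to 2.04. Without praliciguat replicate 3 it was -0.075. Within the lower run of title numbers the difference was -0.27 and within the upper run 1.07, and the difference between runs did not pass the test (edgeR interaction 1.29, adjusted p = 0.440). The interaction test was added after the data were seen and rests on 2 libraries per group in each run. Of the 8 genes 0 passed this interaction test, where 2 of 13569 genes (0.0147%) did. At an unadjusted interaction p under 0.05 there were 0 of 8, where 16.3% of all genes passed. Igf1 had a coefficient of variation of 78.4% over the 8 libraries, above that of 97.2% of all tested genes.

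The libraries stood in the same order by Igf1 as by the sum of the 9 macrophage markers, in 8 of 8 places. From low to high, the order ran through praliciguat replicate 2 (3.34 TPM of Igf1, 122 TPM of markers), placebo replicate 2 (4.43 and 171 TPM), praliciguat replicate 1 (4.76 and 206 TPM), placebo replicate 4 (4.93 and 214 TPM), placebo replicate 1 (5.59 and 244 TPM), praliciguat replicate 4 (10.8 and 299.9 TPM), placebo replicate 3 (13.0 and 483 TPM) and praliciguat replicate 3 (25.3 and 1460 TPM). This pairing was picked out after the values were seen, from 8 genes and 11 marker lists, and shared library effects were not tested. A large part of the sum is the single gene Lyz2, at 750 of 1460 TPM in praliciguat replicate 3 and 53.4 of 122 TPM in praliciguat replicate 2. Not every marker kept the order by itself: Cd163 was at 3.01 TPM in praliciguat replicate 4, below 5.33 TPM in praliciguat replicate 1. Over the list, 9 of 9 macrophage markers had a fold change above 0 (median 0.77), where 7486 of all 13569 genes tested did. Of the 9, 0 passed the test and 0 were at 0 in any library. Within the upper run all 9 differences lay above 0. Within the lower run only those of Mrc1 (0.12) and Cd163 (0.26) did. Cd68, a lysosomal protein of macrophages, was at 5.85, 3.81, 39.6 and 9.19 CPM in praliciguat, against 8.02, 4.35, 12.2 and 4.35 CPM in placebo. Without praliciguat replicate 3 the log2 fold change of Cd68 was -0.20, beside 1.02 with it. The part of macrophage content in the Igf1 level was not tested.

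The 3 genes whose centred log2 CPM profiles over the 8 libraries lay closest to that of Igf1 were Bin2, Dock2 and Ptpro, among 11952 genes. Their root mean square differences from it were 0.159, 0.175 and 0.189, where the Igf1 profile itself had a root mean square of 0.879. Dock2 is a Rac activator of blood cells and Bin2 a membrane-binding protein known from leukocytes. Bin2 is low, at 1.30 ± 1.32 CPM in praliciguat and 0.719 ± 0.352 CPM in placebo (SD, n = 4).

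**Figure D3:**
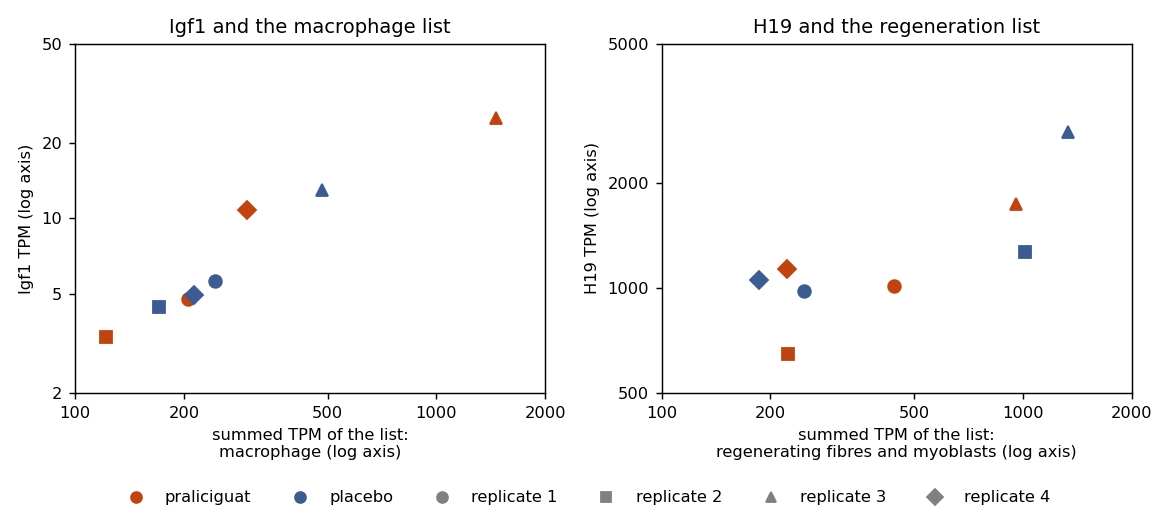
Left, Igf1 against the summed TPM of the 9 macrophage markers; right, H19 against the summed TPM of the 15 regeneration genes; all axes are logarithmic, colour marks the diet and symbol the replicate. The libraries have the same order on both axes at left, with praliciguat replicate 3 at the top right (1460 and 25.3 TPM). At right the 3 libraries of highest H19 are also the 3 highest on the regeneration axis. Most of the regeneration sum in those 3 libraries is the single gene Actc1.

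Igf2, the fetal growth factor that is also made by differentiating myoblasts, lies on chromosome 7 from 142650768 to 142666816 (minus strand). It was at 77.6, 35.0, 189.5 and 115 CPM in praliciguat replicates 1 to 4, against 53.5, 101.4, 128 and 44.9 CPM in placebo replicates 1 to 4. Praliciguat libraries held both the highest and the lowest value, and the groups overlapped. Praliciguat over placebo, the log2 fold change was 0.35 ± 0.51 SE (edgeR adjusted p = 0.984; 95% interval -0.81 to 1.51). Without praliciguat replicate 3 it was -0.11. Within the lower run the difference was -0.50 and within the upper run 0.96 (edgeR interaction 1.28, adjusted p = 0.503). Igf1 made up 15.04 ± 3.09% of the summed TPM of Igf1 and Igf2 in praliciguat and 13.8 ± 4.64% in placebo (SD, n = 4), so Igf2 was the more abundant ligand transcript in every library. The antisense gene Igf2os overlaps Igf2, at 9 to 14 expected counts in praliciguat and 1 to 5 in placebo. Igf2 itself had 901 to 6501 and 1201 to 3719 counts. The Igf2os groups did not overlap, where 3.86% of all genes tested separated in either direction. Its level was at most 0.19 TPM in praliciguat and 0.07 TPM in placebo, and a difference at so few counts was not tested. The strand setting of the counting was not given in the sources used here.

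One count covers 5 annotated transcripts of Igf2. RefSeq lists 4 start places for the gene, to which these transcripts were not matched. The mean transcript length that RSEM assigned to Igf2, weighted over those transcripts, was 3786, 3366, 3454 and 3330 bases in praliciguat, against 3101, 3131, 3745 and 3681 bases in placebo. This range of 685 bases compares with 46.1 bases for Igf1, which also has 5 transcripts. Igfbp7 and H19 have 2 transcripts each, with ranges of 0.67 and 0.06 bases. Igf1r, Igf2r, Igfbp3 and Igfbp5 have 1 transcript each, so their length could not vary. The groups overlapped for Igf2 and for Igf1 (exact two-sided permutation p = 0.743 for Igf2 and 0.314 for Igf1, over 70 groupings). The lengths place weight on different Igf2 transcripts in different libraries, but no per-transcript values were used here.

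The windows around the 4 Igf2 starts are shown because 1 gene-level count does not tell starts apart. Each runs from 250 bases before to 50 bases after a start, on the minus strand of GRCm38.p6 (RefSeq), with capitals marking the word GGGCGG, the core of the GC box that Sp1 factors bind, on either strand. The words CAGCTG, an E-box that myogenic factors bind, and TATAAA were searched on both strands too and are in none of the 4. Of 32851 windows of the same length, 35.7% hold GGGCGG, 16.3% CAGCTG and 13.6% TATAAA.
Igf2 start 1, chr7:142666767-142667066: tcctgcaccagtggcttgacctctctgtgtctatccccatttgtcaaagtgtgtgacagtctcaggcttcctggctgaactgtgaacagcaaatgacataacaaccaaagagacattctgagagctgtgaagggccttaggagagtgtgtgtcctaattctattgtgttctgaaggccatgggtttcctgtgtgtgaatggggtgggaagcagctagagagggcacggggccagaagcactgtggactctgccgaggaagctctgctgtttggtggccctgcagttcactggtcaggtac
Igf2 start 2, chr7:142661222-142661521: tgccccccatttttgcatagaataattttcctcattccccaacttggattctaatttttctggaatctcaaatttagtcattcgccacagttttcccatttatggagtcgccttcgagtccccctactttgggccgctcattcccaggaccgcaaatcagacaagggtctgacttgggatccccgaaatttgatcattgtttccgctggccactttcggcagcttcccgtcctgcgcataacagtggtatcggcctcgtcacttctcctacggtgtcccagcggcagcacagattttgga
Igf2 start 3, chr7:142658755-142659054: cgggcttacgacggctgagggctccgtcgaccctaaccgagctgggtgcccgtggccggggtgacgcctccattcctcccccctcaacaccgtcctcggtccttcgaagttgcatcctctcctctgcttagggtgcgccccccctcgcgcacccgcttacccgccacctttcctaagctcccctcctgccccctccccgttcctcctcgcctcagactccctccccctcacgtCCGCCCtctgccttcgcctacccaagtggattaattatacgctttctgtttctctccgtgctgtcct
Igf2 start 4, chr7:142657447-142657746: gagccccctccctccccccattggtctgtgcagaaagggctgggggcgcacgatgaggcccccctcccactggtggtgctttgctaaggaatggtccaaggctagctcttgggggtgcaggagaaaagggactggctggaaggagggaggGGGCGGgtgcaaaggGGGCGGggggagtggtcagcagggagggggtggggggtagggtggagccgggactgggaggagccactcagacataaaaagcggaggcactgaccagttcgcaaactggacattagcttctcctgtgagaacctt
Starts 3 and 4 lie in windows of 64.7% and 63.3% G or C and hold the word, in 1 copy and in 2; starts 1 and 2 lie in windows of 52.3% and 49.7% G or C and do not.

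The genes nearest to Igf2 in profile were Pycard, Cytip and Sh2b2, with root mean square differences of 0.230, 0.245 and 0.250 beside 0.777 for Igf2 itself. Pycard is the inflammasome adaptor ASC, Cytip a cytohesin-binding protein of blood cells and Sh2b2 an adaptor of receptor tyrosine kinases. Pycard averaged 1.24 ± 0.796 CPM in praliciguat and 0.814 ± 0.465 CPM in placebo, and Sh2b2 7.71 ± 5.15 CPM and 4.85 ± 2.79 CPM (SD, n = 4 each). The fit of Cytip gave a log2 fold change of 0.15 ± 0.49 SE.

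The receptors were steady. Igf1r, the signalling receptor of both ligands, lies on chromosome 7 from 67952257 to 68233668. It was at 30.3, 31.1, 26.2 and 26.0 CPM in praliciguat, against 29.8, 32.03, 24.7 and 29.2 CPM in placebo. Its log2 fold change was -0.026 ± 0.11 SE (edgeR adjusted p = 0.996), and the 95% interval of the fold ran from 0.831 to 1.16. Leaving out 1 library turned this value above 0 in 3 cases, without placebo replicate 2 (0.028), praliciguat replicate 3 (0.013) or praliciguat replicate 4 (0.016). Within-run differences were -0.0076 and -0.040.

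Igf2r, the receptor that clears IGF2 and also sorts lysosomal enzymes, lies on chromosome 17 from 12682406 to 12769706. It was at 86.6, 81.4, 81.2 and 74.4 CPM in praliciguat, against 69.1, 85.1, 87.5 and 91.6 CPM in placebo. Placebo held both its lowest and its highest library. The log2 fold change was -0.043 ± 0.11 SE (edgeR adjusted p = 0.992), with a 95% interval of the fold from 0.823 to 1.14. It was 0.0064 without placebo replicate 4, and 0.13 within the lower and -0.20 within the upper run. The overlapping imprinted RNA Airn, which silences Igf2r on the paternal allele in other mouse tissues, had 58 to 83 expected counts in praliciguat and 54 to 83 in placebo, beside 2095 to 2784 and 1552 to 2550 counts of Igf2r. Igf1r made up 20.6 ± 1.11% of the summed receptor TPM in praliciguat and 20.6 ± 3.02% in placebo (SD, n = 4).

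Variation between libraries separated receptors from ligands. Coefficients of variation over the 8 libraries were 9.39% for Igf1r and 8.94% for Igf2r, above those of 18.5% and 15.8% of all tested genes. They were 78.4% for Igf1, 55.3% for Igf2, 46.3% for H19 and between 24.3% and 28.5% for the 3 binding proteins. A window around 1 RefSeq start is shown for Igf1r, a steady receptor, and for Igf1, the ligand of widest spread. The Igf1 start used is at 87861111, inside the gene span that begins at 87858265. Any other start of Igf1 is not shown. Both windows are on the plus strand of GRCm38.p6 (RefSeq), with capitals marking GGGCGG or CAGCTG on either strand.
Igf1r, chr7:67952007-67952306: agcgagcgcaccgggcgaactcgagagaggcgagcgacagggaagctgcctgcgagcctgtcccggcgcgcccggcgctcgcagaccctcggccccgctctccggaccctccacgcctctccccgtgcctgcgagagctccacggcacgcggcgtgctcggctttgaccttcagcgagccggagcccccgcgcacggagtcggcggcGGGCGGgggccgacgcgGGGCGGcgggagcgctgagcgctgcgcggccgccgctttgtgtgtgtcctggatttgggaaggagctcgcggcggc
Igf1, chr10:87860861-87861160: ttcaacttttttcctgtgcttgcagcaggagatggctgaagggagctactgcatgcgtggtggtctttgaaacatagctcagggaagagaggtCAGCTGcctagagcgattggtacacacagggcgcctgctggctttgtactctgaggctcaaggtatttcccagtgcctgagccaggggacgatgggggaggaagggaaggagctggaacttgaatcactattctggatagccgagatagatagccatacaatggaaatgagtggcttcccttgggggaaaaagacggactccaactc
The Igf1r window is 76.0% G or C with 2 copies of GGGCGG. The Igf1 window is 52.3% G or C with 1 copy of CAGCTG, whose first base lies at -157 from the start at 87861111. Neither holds TATAAA. These are letters in a window and were not set against any binding data. A link between them and the spread of either gene was not tested.

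Igfbp5 and Igfbp7 were the most abundant protein-coding members. Igfbp5, which is induced during myoblast differentiation and binds matrix, lies on chromosome 1 from 72858065 to 72874865. It was at 858, 565, 1012 and 880.3 CPM in praliciguat, against 752, 796, 1309 and 923 CPM in placebo. The highest library was placebo replicate 3 and the lowest praliciguat replicate 2. The log2 fold change was -0.19 ± 0.22 SE (edgeR adjusted p = 0.984; 95% interval -0.69 to 0.31), and 0.0034 without placebo replicate 3. Within-run differences were -0.15 and -0.22.

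Igfbp7, a low-affinity binding protein of vessel walls and matrix, lies on chromosome 5 from 77349240 to 77408045. It was at 93.3, 82.4, 169.9 and 92.9 CPM in praliciguat, against 139, 125, 140.5 and 79.9 CPM in placebo. In praliciguat 3 libraries lay below 3 of the placebo libraries and replicate 3 lay above all 4. Its log2 fold change was -0.14 ± 0.26 SE (edgeR adjusted p = 0.987; 95% interval -0.74 to 0.45). Without praliciguat replicate 3 it was -0.43 (edgeR adjusted p = 0.510, unadjusted p under 0.05, as for 9.25% of all genes in that fit). The difference was -0.59 within the lower and 0.25 within the upper run (edgeR interaction 0.84, adjusted p = 0.415). All 8 endothelial markers had a fold change below 0 (median -0.34, 0 past the test, 3 at an unadjusted p under 0.05, none at 0). Of all genes tested 44.8% lay below 0, and 3.78% were lower at an edgeR unadjusted p under 0.05. The endothelial markers summed to 214 to 305 TPM in praliciguat and 296 to 381 TPM in placebo. No library held the same rank by them as by Igfbp7 (0 of 8). Praliciguat replicate 3, the highest for Igfbp7, was at 276 TPM of endothelial markers, below every placebo library. By fibroblast and by macrophage markers 4 of 8 libraries held the same rank as by Igfbp7. Such counts of equal ranks leave out near matches and were not set against chance, so a low count does not show a lack of relation. The part of any of these cells in the Igfbp7 level was not tested. Pecam1, an endothelial junction protein, was at 123 ± 19.2 CPM in praliciguat and 153 ± 21.5 CPM in placebo (SD, n = 4; log2 fold change -0.32 ± 0.14 SE).

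Igfbp3, the main carrier of IGFs in blood, lies on chromosome 11 from 7206086 to 7215498. It was at 53.2, 33.0, 72.3 and 42.9 CPM in praliciguat, against 78.9, 55.1, 72.2 and 50.8 CPM in placebo. It had the lowest p of the 8 genes, rank 2466 of all tested. The log2 fold change was -0.35 ± 0.24 SE (edgeR adjusted p = 0.984; 95% interval -0.90 to 0.20). Without praliciguat replicate 3 it was -0.58 (edgeR adjusted p = 0.402, unadjusted p under 0.05, as for 9.25% of all genes in that fit), and with each library left out in turn it stayed below 0, from -0.58 to -0.19. Within-run differences were -0.65 and -0.12 (edgeR interaction 0.54, adjusted p = 0.597).

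Of the summed TPM of Igfbp1 to Igfbp7, Igfbp5 took 40.9 ± 4.83% in praliciguat and 40.7 ± 7.70% in placebo, and Igfbp7 took 31.97 ± 3.78% and 31.3 ± 5.05% (SD, n = 4 each). Igfbp4, which inhibits IGF action until it is cleaved, took 13.7 ± 2.29% in praliciguat and 12.4 ± 2.002% in placebo. Igfbp6, which prefers IGF2, took 7.24 ± 1.55% and 8.51 ± 1.36%, and Igfbp3 6.10 ± 0.471% and 6.94 ± 0.897%. The groups overlapped in each share. The summed level itself was 414 to 968 TPM in praliciguat and 628 to 930.04 TPM in placebo. Igfbp2 was at 0 to 1.31 TPM in praliciguat and 0.53 to 1.80 TPM in placebo, and Igfbp1, a liver product, had at most 1 count in any library. A library with 0 counts allows up to 0.0875 to 0.134 CPM, from 3 counts and for counting error only.

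**Figure D4:**
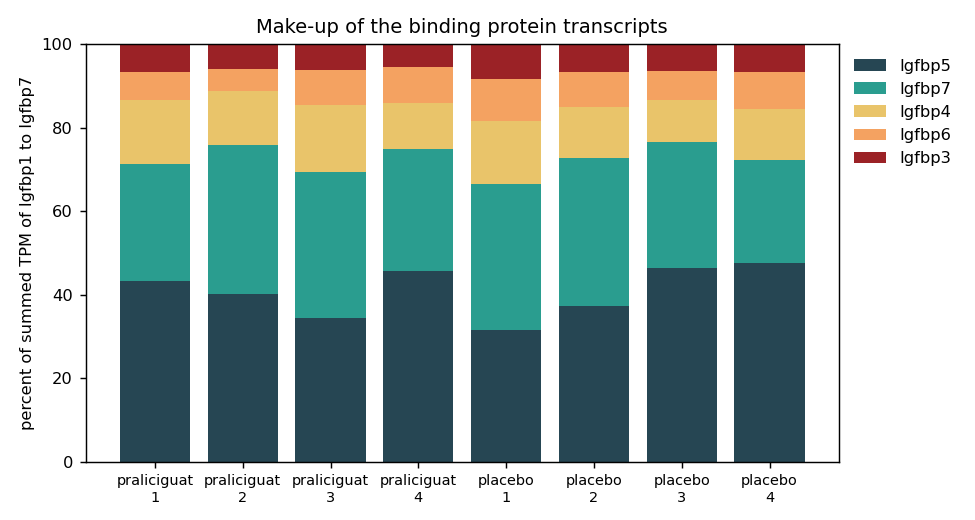
Share of each binding protein in the summed TPM of Igfbp1 to Igfbp7 (percent, linear axis from 0), 1 bar per library, praliciguat at left. Igfbp5 and Igfbp7 together form the lower part of every bar; Igfbp1 and Igfbp2, under 0.3% in each library, are not drawn.

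H19 lies on chromosome 7 from 142575530 to 142578146, on the minus strand, with 72621 bases between it and Igf2. The neighbours share enhancers, which act on H19 from the maternal and on Igf2 from the paternal copy. H19 was at 1251, 815, 1960 and 1355 CPM in praliciguat, against 1153, 1563, 3139 and 1208 CPM in placebo. Placebo replicate 3 lay above all other libraries and praliciguat replicate 2 below. Over all libraries the log2 fold change was -0.39 ± 0.37 SE (edgeR adjusted p = 0.984; 95% interval -1.24 to 0.45). Without placebo replicate 3 it was 0.035. Within-run differences were -0.41 and -0.26 (edgeR interaction 0.0039, adjusted p = 0.999).

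The RNA is also the precursor of miR-675. The hairpin, on chromosome 7 from 142577064 to 142577147, lies within exon 1 of an H19 transcript in GENCODE M21. Its mature sequences are shown because H19 RNA is their precursor; mature miRNAs were not measured by this assay. They are from RefSeq (GRCm38.p6, minus strand), with the seed, bases 2 to 8, in capitals, and the seeds differ.
mmu-miR-675-5p: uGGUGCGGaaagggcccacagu
mmu-miR-675-3p: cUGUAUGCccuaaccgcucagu
H19 exceeded Igf2 in TPM 27.6, 35.2, 16.1 and 17.6 times in praliciguat replicates 1 to 4, against 29.9, 21.6, 41.6 and 44.6 times in placebo. Both praliciguat libraries of the upper run had lower ratios than any placebo library, and both of the lower run fell among them.

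The nearest profiles to H19 were those of Nid2, a basement membrane nidogen, Phlda1, a pleckstrin homology domain protein, and Rap1gap2, a GTPase activator of Rap1. Their root mean square differences were 0.183, 0.228 and 0.234 beside 0.544 for H19 itself. Nid2 was at 22.0 ± 7.98 CPM in praliciguat and 25.8 ± 10.7 CPM in placebo, Phlda1 at 12.9 ± 4.201 CPM and 13.8 ± 4.12 CPM, and Rap1gap2 at 13.2 ± 4.16 CPM and 16.3 ± 4.93 CPM (SD, n = 4 each).

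Genes of regenerating fibres and myoblasts were set beside H19 and Igf2. Of the 15 listed, 14 were tested, 12 had a fold change below 0 (median -0.53) and 0 passed the test. Over all genes tested 44.8% lay below 0. At an edgeR unadjusted p under 0.05 there were 2 lower and 1 higher, where 3.78% of all genes were lower and 1.95% higher. They summed to 222 to 956 TPM in praliciguat and 186 to 1335 TPM in placebo. Actc1, the cardiac actin of newly formed fibres, was at 345, 131, 761 and 117 TPM in praliciguat, against 116, 881, 1115 and 78.1 TPM in placebo. The 3 libraries of highest H19, placebo replicates 3 and 2 and praliciguat replicate 3, were also the 3 of highest regeneration sum, but 1 of 8 libraries held the same rank by both, against 3 of 8 for H19 with the fibroblast, macrophage or red blood lists. Actc1 made up most of the regeneration sum in these 3 libraries, so the sum there is largely 1 gene. It held 1115 of 1335 TPM in placebo replicate 3 and 881 of 1010 TPM in placebo replicate 2. In praliciguat replicate 3 it held 761 of 956 TPM. This pairing too was picked out after the values were seen, and the counts of equal ranks leave out near matches and were not set against chance. The part of the regeneration genes in the H19 level was not tested.

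Myh3, the embryonic myosin heavy chain, was at 5.92, 2.99, 11.2 and 1.74 CPM in praliciguat, against 55.4, 21.8, 35.2 and 32.8 CPM in placebo. Its groups did not overlap (log2 fold change -2.72 ± 0.54 SE, edgeR adjusted p = 0.251), whereas those of H19 and Igf2 did. Among the 14 regeneration genes tested, groups separated lower in 1 and higher in 1, where 2.54% and 1.32% of all genes did. The groups of Myod1, a myogenic transcription factor, did not overlap either, at 32.1 ± 5.47 CPM in praliciguat and 19.9 ± 4.46 CPM in placebo (log2 fold change 0.69 ± 0.18 SE, edgeR adjusted p = 0.364). Ncam1, an adhesion molecule of satellite cells and denervated fibres, was at 9.24 ± 4.21 CPM and 15.5 ± 4.90 CPM (log2 fold change -0.75 ± 0.32 SE, edgeR adjusted p = 0.836; SD, n = 4 each).

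Interstitial cells were represented by 9 fibroblast and fibro-adipogenic progenitor markers, of which 7 had a fold change above 0 (median 0.22) and 0 passed the test. Over all 13569 genes tested 7486 lay above 0. Within the lower run the differences of all 9 markers lay below 0, from -1.51 for Col1a1 to -0.070 for Dpt. Within the upper run all 9 lay above 0. They summed to 468 to 3106 TPM in praliciguat and 939.9 to 1633 TPM in placebo, with none at 0 in any library. Praliciguat replicate 2 was the lowest and praliciguat replicate 3 the highest, as for Igf1 and Igf2. Pdgfra, the receptor that marks these progenitors, was at 22.6, 14.7, 48.8 and 26.6 CPM in praliciguat, against 26.5, 26.6, 30.1 and 22.0 CPM in placebo. Col1a1, the alpha 1 chain of type I collagen, was at 192, 138, 1504 and 393 CPM in praliciguat, against 535, 402, 729.9 and 293 CPM in placebo. Without praliciguat replicate 3 their log2 fold changes were -0.30 and -1.02, beside 0.10 and 0.19 with it. The part of these cells in the ligand levels was not tested.

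Across the 8 genes, praliciguat replicate 2 was the lowest library for 5 (H19, Igf1, Igf2, Igfbp3 and Igfbp5). Praliciguat replicate 3 was the highest for 3 (Igf1, Igf2 and Igfbp7) and placebo replicate 3 for 2 (H19 and Igfbp5). Both extremes of the ligands thus came from mice on the same diet. Leaving out replicate 3 of both groups, an alternative chosen after seeing the data, gave log2 fold changes of 0.37 for Igf1, 0.18 for Igf2, -0.53 for Igfbp3 and -0.20 for H19, with 0 of 8 called and 1, Igfbp3, at an unadjusted p under 0.05, where 7.91% of all genes passed in that fit.

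The rest of the pathway was read from 7 lists with 64 genes, of which 58 were tested. Of these 34 had a fold change above 0 and 24 below, with a median of 0.029 beside 0.020 over all genes tested, and 0 passed the test. At an unadjusted p under 0.05 there were 2 of 58, 1 higher and 1 lower, beside 5.73% of all genes. The groups separated in 1 gene, Pik3cb, beside 3.86% of all genes.

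Among regulators of the ligands' supply, growth hormone signalling had 4 of 6 genes above 0 (median 0.17). Stat5b, the transcription factor that growth hormone activates to induce Igf1, was at 337, 327, 188 and 313 CPM in praliciguat, against 177, 223, 189.7 and 251 CPM in placebo. All praliciguat libraries but replicate 3 lay above all placebo libraries (log2 fold change 0.47 ± 0.19 SE, edgeR adjusted p = 0.794, unadjusted p under 0.05). Of the 5 genes of binding protein proteases and their inhibitors, Pappa2, a protease that cleaves Igfbp3 and Igfbp5, was low, at 0.314 ± 0.294 CPM in praliciguat and 1.43 ± 1.30 CPM in placebo (SD, n = 4). Its log2 fold change was -2.11 ± 0.80 SE (edgeR adjusted p = 0.746, unadjusted p under 0.05). It was -1.28 without placebo replicate 1 and -2.98 without praliciguat replicate 3, and -0.27 on the log2(TPM + 1) scale, which understates changes of low genes. The list as a whole had 3 genes above 0 and 2 below.

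Of the other binding proteins and the acid-labile subunit 3 of 5 were tested. Igfals, the acid-labile subunit that stabilises circulating IGF complexes, was at 3.00 ± 1.32 CPM in praliciguat and 2.10 ± 0.733 CPM in placebo, and Igfbp6 at 30.2 ± 13.9 CPM and 38.2 ± 6.30 CPM (SD, n = 4 each). Insr, the insulin receptor, which can pair with IGF1R, was at 84.0 ± 15.7 CPM in praliciguat and 84.8 ± 14.2 CPM in placebo (log2 fold change -0.014 ± 0.16 SE). Of the Igf2 mRNA-binding proteins, Igf2bp2, which promotes translation of Igf2 mRNA, was at 2.84 ± 1.66 CPM and 2.95 ± 0.729 CPM. Igf2bp3 was under 1 CPM in both groups (0.695 ± 0.487 CPM in praliciguat and 0.664 ± 0.316 CPM in placebo).

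Below the receptor, 22 of 22 signalling genes were tested, 14 above and 8 below 0 (median 0.037), with 0 past the test and 0 at an unadjusted p under 0.05. Irs2, an adaptor of the insulin and IGF1 receptors, was at 11.5 ± 5.14 CPM in praliciguat and 24.6 ± 19.3 CPM in placebo (log2 fold change -1.11 ± 0.61 SE). Its direction differed between the runs, with a difference of 0.89 in the lower and -2.49 in the upper run, and the fold change was -0.58 without placebo replicate 4. Pik3cb, a catalytic subunit of phosphoinositide 3-kinase, was at 13.7 ± 0.418 CPM and 11.7 ± 2.08 CPM (log2 fold change 0.23 ± 0.14 SE; SD, n = 4 each). Among 19 tested imprinted genes, the class to which Igf2, H19 and Igf2r belong, 10 lay above and 9 below 0 (median 0.0017), again with 0 past the test or at an unadjusted p under 0.05. Nnat, neuronatin, was at 123 ± 129 CPM in praliciguat and 48.2 ± 24.2 CPM in placebo. Praliciguat replicate 3 lay above all other libraries, and the log2 fold change of 1.35 was 0.33 without it. Plagl1, a transcription factor that in mouse embryos regulates Igf2 and H19, was at 15.2 ± 7.35 CPM and 10.1 ± 4.18 CPM (log2 fold change 0.59 ± 0.41 SE; SD, n = 4 each).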

How the data were processed

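Per the labels' protocols, RNA from snap-frozen, homogenised tibialis anterior muscle was extracted with Tri Reagent, and the KAPA kit used keeps mRNA strand. RSEM 1.2.28, STAR 2.5.3a, FastQC and Trimmomatic, and the build mm10 (GRCm38), stand in the submitters' processing notes. Per the file headers, the deposited expected counts are RSEM's estimated reads per gene, and the deposited TPM are its values scaled for length and depth. The deposited gene and effective lengths, in bases, are weighted over transcripts, per the file headers. Deposited FPKM were not used here.

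Groups came from the labels, with replicates numbered in accession order, which pairs nothing. After rounding, expected counts were tested by edgeR 4.0.16 under R 4.3.3 (filterByExpr, TMM scaling, robust quasi-likelihood F test, Benjamini-Hochberg adjustment over all 13569 tested genes, threshold 0.05, no covariate); limma 3.58.1 and DESeq2 1.42.0 gave alternatives. A standard error is the size of the log2 fold change divided by the square root of F. Log2 CPM used a prior count of 2. Within 12 pairs of libraries of the same group the chi-square per degree of freedom was 21.9 to 136, so no pair agreed within sampling noise. Counts were simulated for this comparison over 13419 genes, each gene drawn separately, without library effects shared between genes. On them the test found 58 of 96 genes given a log2 change of 1 and 85 of 96 given 2. It also called 6 genes given no change. These shares check the method and do not give its power in the real libraries, where such shared effects may be present. Alternatives were other scalings, filters, tools and pseudocounts, the title run as a block, and each library left out.

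Named genes were the 8 members; of each pathway and regeneration list those with an unadjusted p under 0.05 (at most 4) or else the 2 of lowest p; the 3 nearest profiles to Igf1, Igf2 and H19 among genes of at least 1 mean CPM; and Myh3, Pdgfra, Col1a1, Cd68 and Pecam1. Actc1 was chosen after its values were seen. Members and lists were chosen with earlier results of these data known. RefSeq coordinates matched 8 of 8 members, and promoter windows 7 of 8 (not H19).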

Additional observations from a re-analysis of the deposited data

Results flagged for a closer look

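In groups of 4 libraries, a value was taken up when its gap to the nearest library, as a share of the group's range, passed Dixon's critical value at 95%. Of 54 groups of values looked at, 5 met this, where chance gives about 1 in 20. Igf1 was at 48.0 CPM in placebo replicate 3, above the other placebo libraries (18.0 to 21.5 CPM). Igfbp7 was at 169.9 CPM in praliciguat replicate 3, above the other praliciguat libraries (82.4 to 93.3 CPM). The share of Igfbp3 in binding protein TPM was 8.28% in placebo replicate 1, beside 6.44% to 6.56% in the other placebo libraries. The summed macrophage markers were at 1460 TPM in praliciguat replicate 3, and the summed Schwann cell markers at 340.3 TPM in placebo replicate 1. The list of 6 Schwann cell markers ranged from 93.3 to 192 TPM in praliciguat and from 151 to 340.3 TPM in placebo.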

How the results depend on the processing

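The count of called members was 0 of 8 under all 19 alternatives. The number of all genes called higher was 0 except with DESeq2 (15). The number called lower was 0 except with DESeq2 (114), limma-voom (2), the title run as a block (3), and replicate 3 of both groups left out (9, chosen after seeing the data); with 1 library left out it ranged from 0 to 5 (5 without placebo replicate 3). Of the genes on the pathway and marker lists, DESeq2 called 10, limma-voom 1, the fit with the run as a block 1 and the fit without replicate 3 of both groups 5; with 1 library left out the range was 0 to 5. DESeq2 called Myh3 (-2.73) and Myod1 (0.69). The shares of Igf1, Igf1r, Igfbp3, Igfbp4, Igfbp5, Igfbp6 and Igfbp7 moved by less than 1 SD between libraries under each alternative run. With 1 library left out, the sign of the difference, in percentage points, turned for Igf1 (-0.998 to 2.43), Igf1r (-1.06 to 1.23), Igfbp5 (-2.85 to 2.51) and Igfbp7 (-1.59 to 2.01). The Igf1r share was varied after the data were seen. No paired analysis was possible because replicate numbers were given in accession order only.

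With 1 library left out, signs turned for Igf1 (-0.075 to 1.12), Igf2 (-0.11 to 0.64), Igf1r (-0.099 to 0.028), Igf2r (-0.12 to 0.0064), Igfbp5 (-0.30 to 0.0034) and H19 (-0.63 to 0.035) among the members, and not for Igfbp3 or Igfbp7 (-0.43 to -0.028). They also turned for Bin2 (-0.13 to 1.26), Cd68 (-0.20 to 1.39), Dock2 (-0.20 to 1.08), Ptpro (-0.22 to 0.93), Cytip (-0.36 to 0.48), Col1a1 (-1.02 to 0.51), Pdgfra (-0.30 to 0.31), Igf2bp2 (-0.49 to 0.21), Igf2bp3 (-0.32 to 0.42), Insr (-0.096 to 0.10), Nid2 (-0.47 to 0.076) and Phlda1 (-0.31 to 0.12). Leaving out praliciguat replicate 3 turned Igf1, Igf2, Igf1r, Bin2, Cd68, Dock2, Ptpro, Cytip, Col1a1, Pdgfra and Insr. Other settings turned Col1a1 (limma-voom -0.41, log2(TPM + 1) -0.42, log2(TPM + 0.1) -0.43, run as a block -0.30, without replicate 3 of both groups -0.77), Pdgfra (limma-voom -0.013, log2(TPM + 1) -0.048, log2(TPM + 0.1) -0.071, without replicate 3 of both groups -0.24), Igf2bp3 (limma-voom -0.18, log2(TPM + 1) -0.015, log2(TPM + 0.1) -0.13, run as a block -0.14), Cytip (log2(TPM + 0.1) -0.0072, without replicate 3 of both groups -0.029) and Insr (without replicate 3 of both groups 0.0067). The cause was not tested. At 4 libraries per group, the interval for Igf1 spans folds from 0.618 to 4.11, so a change within that range could not be told from none.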
